A study of Mus musculus with 4 samples.

Results

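The cells described here are αβ T cells of mouse gingiva picked by their transcripts, 88 of 31150 cells (0.283%) in a single-cell RNA sequencing series of 4 libraries. A cell was counted as an αβ T cell when it had at least 2 transcript molecules (unique molecular identifiers, UMIs) of the CD3 genes Cd3d, Cd3e and Cd3g together and at least 1 of the αβ receptor constant genes Trac, Trbc1 and Trbc2. It also had no UMI of Trdc, the δ constant gene, or of the B cell gene Cd79a, and fewer than 5 UMIs each of Krt5 plus Krt14 and of Lyz2. These genes chose the cells, so their levels are given only as a description. Cells with no Trdc UMI can still be γδ T cells whose Trdc was missed, and cells without a CD3 UMI were not counted.

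The study tested integrin α9β1 in macrophages during periodontitis, and each group is 1 library of dissociated gingival cells. The cKO_PD library came from Itga9-Lyz2-cKO mice and the cHet_PD library from Itga9-Lyz2-cHet mice, both 14 days after a silk ligature and Porphyromonas gingivalis were placed at the upper second molar. The cKO_control and cHet_control libraries came from gingiva of the same genotypes labelled as controls. All 4 groups carry an Itga9-Lyz2 genotype, so none is an unmodified wild type, and Lyz2 is a gene of macrophages, monocytes and neutrophils that is widely used to drive deletion in myeloid cells and not in T cells. Strain, age, sex and the number of animals in a library are not given in the sources used here, and a group of 1 library permits no test between groups.

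αβ T cells recognise peptides on MHC molecules through a receptor of an α and a β chain, which signals through the CD3 chains. CD4 marks helper and regulatory cells and CD8 marks cytotoxic cells; regulatory T cells depend on the transcription factor Foxp3 and restrain other T cells, and type 17 cells make interleukin 17, which calls neutrophils to mucosal barriers. In gingiva, T cells sit beneath and within the epithelium facing the tooth, where γδ T cells are a major source of interleukin 17 in mice, and T cell RANKL (Tnfsf11) can drive bone-resorbing osteoclasts in periodontitis.

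The β constant genes Trbc1 and Trbc2 are near copies in their first coding exon, which limits how reads from it can be assigned. On mm10, Trac lies at chr14:54220521-54224206 on the plus strand, and the β constant genes lie on chromosome 6. The first coding exons of Trbc1 (chr6:41538218-41538592, plus strand) and Trbc2 (chr6:41546730-41547104, plus strand) are each 375 bases long, and 374 of these are identical. The 60 bases around the only difference are shown because a read from this exon can be assigned to 1 of the genes only if it covers that base, which is in capitals; the sequences are from GENCODE M21 on mm10, at chr6:41538447-41538506 and chr6:41546959-41547018.
Trbc1 exon 1: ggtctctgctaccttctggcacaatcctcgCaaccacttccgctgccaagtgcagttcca
Trbc2 exon 1: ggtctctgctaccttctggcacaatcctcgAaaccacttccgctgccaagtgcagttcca
Of the 88 cells, 12 had UMIs of Trbc1 only, 45 of Trbc2 only, 12 of both and 19 of neither. A T cell normally uses 1 of the β constant genes. The later exons, nearer the captured 3′ end, were not compared. How far the near identity of exon 1 bears on the 12 cells with both is therefore not known. Trac was found in 65 of the 88 cells: 9 of 16 in cKO_PD, 36 of 47 in cHet_PD, 13 of 18 in cKO_control and 7 of 7 in cHet_control. The variable segments, which lie at the far end of the transcript from the captured 3′ end, gave 0 UMIs over 130 Trav genes and 4 UMIs over 35 Trbv genes, so clonality cannot be described.

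Depth differed between conditions and bears on every share given below. The deposited libraries held 6684 to 9331 barcodes and 21368197 to 62914870 UMIs. The lowest barcode had 500 UMIs in both PD libraries and 1501 in both control libraries, so the controls hold no shallow cells. The filter of at least 200 genes and at most 20% mitochondrial UMIs kept 98.7%, 98.8%, 82.2% and 90.3% of barcodes in cKO_PD, cHet_PD, cKO_control and cHet_control. Pairs of libraries shared 65 to 116 barcode sequences, and 1 of the 88 αβ T cells had a barcode that also occurs in another library. The αβ T cells had a median of 1347 UMIs in cKO_PD, 2060 in cHet_PD, 4255.5 in cKO_control and 2559 in cHet_control, and the sums of all their UMIs were 22665, 114882, 72897 and 18608. Levels are given as CPM, the UMIs of a gene per 1000000 UMIs summed over the αβ T cells of a library. Intervals are 95% and exact (Poisson for a level, Clopper-Pearson for a share, conditional binomial for a ratio), and they cover counting error only, not differences between animals.

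The rule drew a boundary through a continuum of sparse counts. Of the 88 cells, 26 had exactly 2 CD3 UMIs, while 35 cells that met the other criteria had exactly 1 and were left out. Similarly, 22 cells had exactly 1 receptor UMI, and 17 cells with enough CD3 had none. Trdc removed 56 otherwise qualifying cells, 3 of them on a single Trdc UMI, and the keratin limit removed 20. Neither Cd79a nor Lyz2 removed any.

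Markers of most other cells were low, with local exceptions, and those of natural killer and innate lymphoid cells were not. The 4 naming markers Cd3e, Cd3d, Trac and Trbc2 together reached 2735, 2141, 2318 and 3171 CPM in cKO_PD, cHet_PD, cKO_control and cHet_control, against 40.2 to 75.0 CPM in all other cells. Of 13 B and plasma cell markers at most 1 had a UMI in any library (0 to 13.7 CPM summed), and of 20 phagocyte and dendritic markers 2 to 7 did (269 to 644 CPM), with the macrophage genes Csf1r and C1qb at 0 in all 4 libraries. Natural killer and innate lymphoid markers summed to 574, 409, 302 and 3171 CPM, above the 295, 391, 78.5 and 67.2 CPM of all other cells. In cHet_control 49 of their 59 UMIs were UMIs of the granzyme gene Gzma in 1 cell. The natural killer receptor Ncr1 and the adaptor Tyrobp were at 0 throughout. Neutrophil markers summed to 1765, 157, 0 and 376 CPM, with 31 of the 40 UMIs of cKO_PD in 1 cell. Epithelial markers, of which 10 to 13 of 13 had a UMI, summed to 2118, 14963, 3498 and 4837 CPM. These are low beside 39587 to 48046 CPM in all other cells, but 1 cHet_PD cell held 1426 of 1747 UMIs of the epithelial genes counted per cell, and without it those genes were at 3008 CPM in that library. Of 9 γδ genes 1 to 6 had a UMI (794, 209, 892 and 322 CPM), against 3236 to 5686 CPM in the γδ T cells of the same libraries. The cKO_control library stood apart in carrying 11 nasal secretory genes, at 9272 CPM in its other cells and 288 CPM in its αβ T cells, against 0 CPM in the αβ T cells of the other libraries.

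αβ T cells were most frequent in diseased cHet gingiva. They made up 16 of 6595 cells in cKO_PD (0.243%, interval 0.139 to 0.394%), 47 of 8967 in cHet_PD (0.524%, 0.385 to 0.696%), 18 of 7673 in cKO_control (0.235%, 0.139 to 0.370%) and 7 of 7915 in cHet_control (0.0884%, 0.0356 to 0.182%). The cHet_PD interval lay above those of both controls and met that of cKO_PD at its lower end, and the cHet_control share was lowest. In cHet mice the PD share was 5.93 times the control share (2.66 to 15.5), while in cKO mice the ratio of PD to control was 1.03 (0.493 to 2.15). Between genotypes, cKO_PD had 0.463 times the share of cHet_PD (0.245 to 0.831), and cKO_control had 2.65 times that of cHet_control (1.06 to 7.51). γδ T cells, here cells with at least 2 CD3 UMIs, at least 1 Trdc UMI and the same limits on B cell, keratin and Lyz2 UMIs but no demand for an αβ receptor UMI, numbered 32, 65, 14 and 15; 7, 30, 9 and 10 of them also had an αβ receptor UMI. With every library held to cells of at least 1500 UMIs, cKO_PD kept 5 αβ T cells (0.101% of its cells), which put the ratio of PD to control in cKO mice at 0.430 and that of cKO_PD to cHet_PD at 0.171. With at most 10% mitochondrial UMIs the cHet_control share was 0.163% and the ratio of PD to control was 0.638 in cKO mice and 3.27 in cHet mice.

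**Figure D1:**
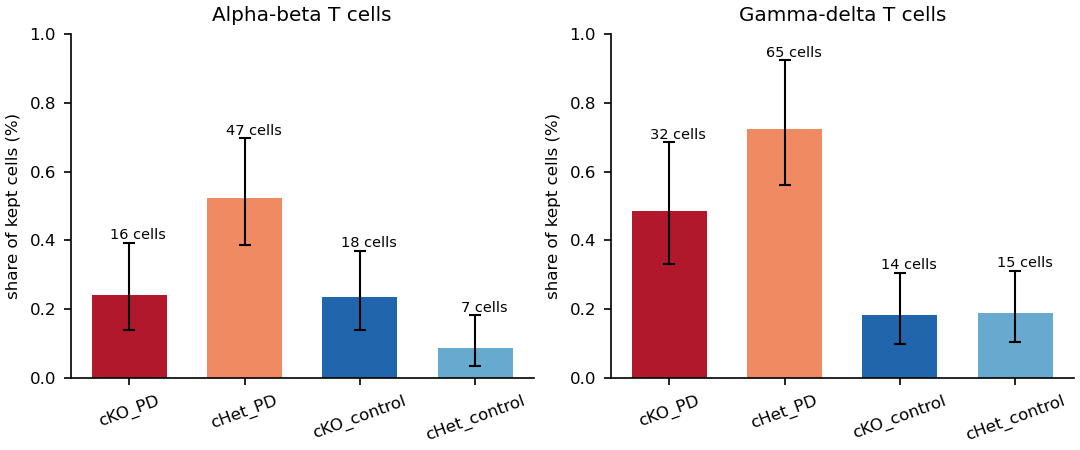
Share of kept cells (%) that were αβ T cells (left) and γδ T cells (right) in cKO_PD, cHet_PD, cKO_control and cHet_control; each bar is 1 library and the lines are exact 95% binomial intervals of counting error. The αβ share is highest in cHet_PD at 0.524% and lowest in cHet_control at 0.0884%.

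CD8 transcripts were at higher levels in the αβ T cells of both control libraries than in those of both PD libraries. Cd8a (chr6:71373427-71379173, plus strand), the α chain of CD8, was at 221 CPM (71.6 to 515) in cKO_PD, 69.6 (30.1 to 137) in cHet_PD, 658 (485 to 873) in cKO_control and 752 (411 to 1262) in cHet_control. Its partner chain Cd8b1 was at 44.1, 34.8, 329 and 269 CPM. For Cd8a the cHet_PD interval lay below both control intervals, and the cKO_PD interval overlapped them only in part. Cells with a UMI of either CD8 gene were 3 of 16 in cKO_PD (18.8%, 4.05 to 45.6%), 5 of 47 in cHet_PD (10.6%, 3.55 to 23.1%), 8 of 18 in cKO_control (44.4%, 21.5 to 69.2%) and 3 of 7 in cHet_control (42.9%, 9.90 to 81.6%). The shares were lower in PD in both genotypes, but within each genotype the intervals overlap. After each cell was reduced to 1000 UMIs the counts were 1 of 11, 5 of 45, 7 of 18 and 3 of 7, with 5 shallower cells of cKO_PD and 2 of cHet_PD left out. Epithelial cells without CD3, used as a gauge of free RNA, had a Cd8a UMI in 0 to 0.0166% of cells at medians of 2850.5 to 5683 UMIs.

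CD4 was seen in few cells and no cell had both co-receptors. Cd4 (chr6:124864692-124888221, minus strand) had 3, 21, 3 and 3 UMIs in cKO_PD, cHet_PD, cKO_control and cHet_control, found in 2 of 16, 11 of 47, 2 of 18 and 2 of 7 cells. Its level was 132 CPM (27.3 to 387), 183 (113 to 279), 41.2 (8.49 to 120) and 161 (33.2 to 471), and all these intervals overlap, those of cHet_PD and cKO_control narrowly. A Cd4 UMI was found in at most 0.191% of epithelial cells and in 0 γδ T cells. Cells with neither Cd4 nor CD8 were 52 of 88, and cells with neither of these nor Foxp3 were 44. At these depths a missing co-receptor is not evidence that the cell lacked it.

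Genes of cytotoxic and tissue-dwelling lymphocytes were found in a larger share of the cells with a CD8 UMI than of the others, pooled over libraries that differ in both. Over all libraries, the 19 cells with a CD8 UMI had a median of 2929 UMIs, and the 69 others had 2087. Ccl5, a chemokine of effector T cells, was found in 11 of the 19 and in 5 of the 69. These were 0 of 3, 1 of 5, 7 of 8 and 3 of 3 CD8 cells in cKO_PD, cHet_PD, cKO_control and cHet_control, and 1 of 13, 3 of 42, 0 of 10 and 1 of 4 of the others, so the pairing of CD8 and Ccl5 was seen mainly in the control libraries. Nkg7, a protein of cytotoxic granules, was found in 13 of the 19 (1, 3, 7 and 2 by library) and in 7 of the 69, and the membrane protein gene Ms4a4b in 15 and 17. Itgae, the CD103 integrin chain that binds epithelial E-cadherin, was found in 12 of the 19 and in 21 of the 69. Il2ra, the high-affinity interleukin 2 receptor chain, was found in 1 of the 19 and in 38 of the 69. No CD8 cell had a Foxp3, Il17a or Il17f UMI, though classes this small would share few cells.

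Ccl5 and Nkg7, like Cd8a, were at higher levels in both control libraries, and Gzmb was not. Ccl5 was at 265 CPM (97.1 to 576) in cKO_PD, 52.2 (19.2 to 114) in cHet_PD, 1097 (870 to 1366) in cKO_control and 3816 (2980 to 4813) in cHet_control. Nkg7 was at 44.1 (1.12 to 246), 78.3 (35.8 to 149), 370 (244 to 539) and 591 (295 to 1058) CPM. For Ccl5 both PD intervals lie below both control intervals, although 40 of the 71 cHet_control UMIs were in 1 cell. Gzma, the granzyme A gene, had 0, 2, 16 and 55 UMIs, with all 16 in 1 cKO_control cell and 49 of the 55 in 1 cHet_control cell. Gzmb, the granzyme B gene, was at 132, 1001, 68.6 and 484 CPM, highest in cHet_PD. Tbx21, the type 1 master regulator, was found in 0, 4, 6 and 1 cells and Ifng, the interferon γ gene, in 0, 1, 2 and 1 cells.

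A Foxp3 UMI was found in αβ T cells of both cHet libraries and in none of the cKO libraries. Foxp3 (chrX:7573644-7595245, plus strand) had 0 UMIs in cKO_PD, 29 in 12 of 47 cells of cHet_PD (25.5%, 13.9 to 40.3%), 0 in cKO_control and 2 in 2 of 7 cells of cHet_control (28.6%, 3.67 to 71.0%). The cHet_PD level of 252 CPM (169 to 363) and the cHet_control level of 107 CPM (13.0 to 388) stood against upper limits of 163 CPM in cKO_PD and 50.6 CPM in cKO_control. Taking 3 counts as the limit of a count of 0, the 0 of 16 cells of cKO_PD allow up to 18.8% of cells with a Foxp3 UMI, which falls within the cHet_PD interval, and the 0 of 18 of cKO_control up to 16.7%. These limits are on cells with a UMI, not on cells that express the gene. With cells reduced to 1000 UMIs, 8 of 45 cHet_PD cells kept a Foxp3 UMI and 0 of 11, 0 of 18 and 0 of 7 had one in cKO_PD, cKO_control and cHet_control. No γδ T cell had a Foxp3 UMI, and at most 0.215% of epithelial cells did.

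Within cHet_PD the cells with a Foxp3 UMI carried other genes of regulatory T cells. The 12 cells with Foxp3 (median 1981.5 UMIs) were set beside the 35 without (median 2060 UMIs), groups of similar depth. Ctla4, an inhibitory receptor that removes co-stimulatory ligands, was in 12 of 12 Foxp3 cells at 5746 CPM (4903 to 6693) and in 12 of 35 others at 836 CPM (654 to 1052). Il2ra was in 12 of 12 at 3970 CPM (3275 to 4769) and in 12 of 35 at 986 CPM (788 to 1220). Ikzf2, which encodes the transcription factor Helios, was at 3030 CPM in 9 of 12 cells and at 545 CPM in 10 of 35. The intervals of these 3 genes do not overlap between the classes.

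TNF receptor family and effector genes were also unevenly spread between these classes. Tnfrsf9, the co-stimulatory receptor 4-1BB, was at 3308 CPM (2677 to 4044) in Foxp3 cells and 592 CPM (441 to 778) in the others, and Tnfrsf4, the receptor OX40, was in 9 of 12 cells and in 3 of 35. Il10, an anti-inflammatory cytokine, was at 1080 CPM in 3 of 12 cells and at 151 CPM in 2 of 35. Gzmb was in 5 of 12 Foxp3 cells at 2507 CPM and in 4 of 35 others at 499 CPM. Single cells weigh on both genes. Of the 115 Gzmb UMIs of cHet_PD, 51 were in 1 Foxp3 cell and 29 in 1 of the others. Of its 44 Il10 UMIs, 16 were in 1 Foxp3 cell and 12 in 1 of the others. Several genes ran the other way: Tcf7, a factor of naive and memory cells, was at 34.8 CPM in Foxp3 cells and 302 CPM in the others, Gata3, the type 2 regulator, at 34.8 and 325 CPM, Cxcr6, a receptor of tissue-resident cells, at 279 and 778 CPM, and the RANKL gene Tnfsf11 at 34.8 and 383 CPM, with 17 of its 34 UMIs in 1 cell. Il17a was at 0 CPM in Foxp3 cells and 464 CPM in the others.

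**Figure D2:**
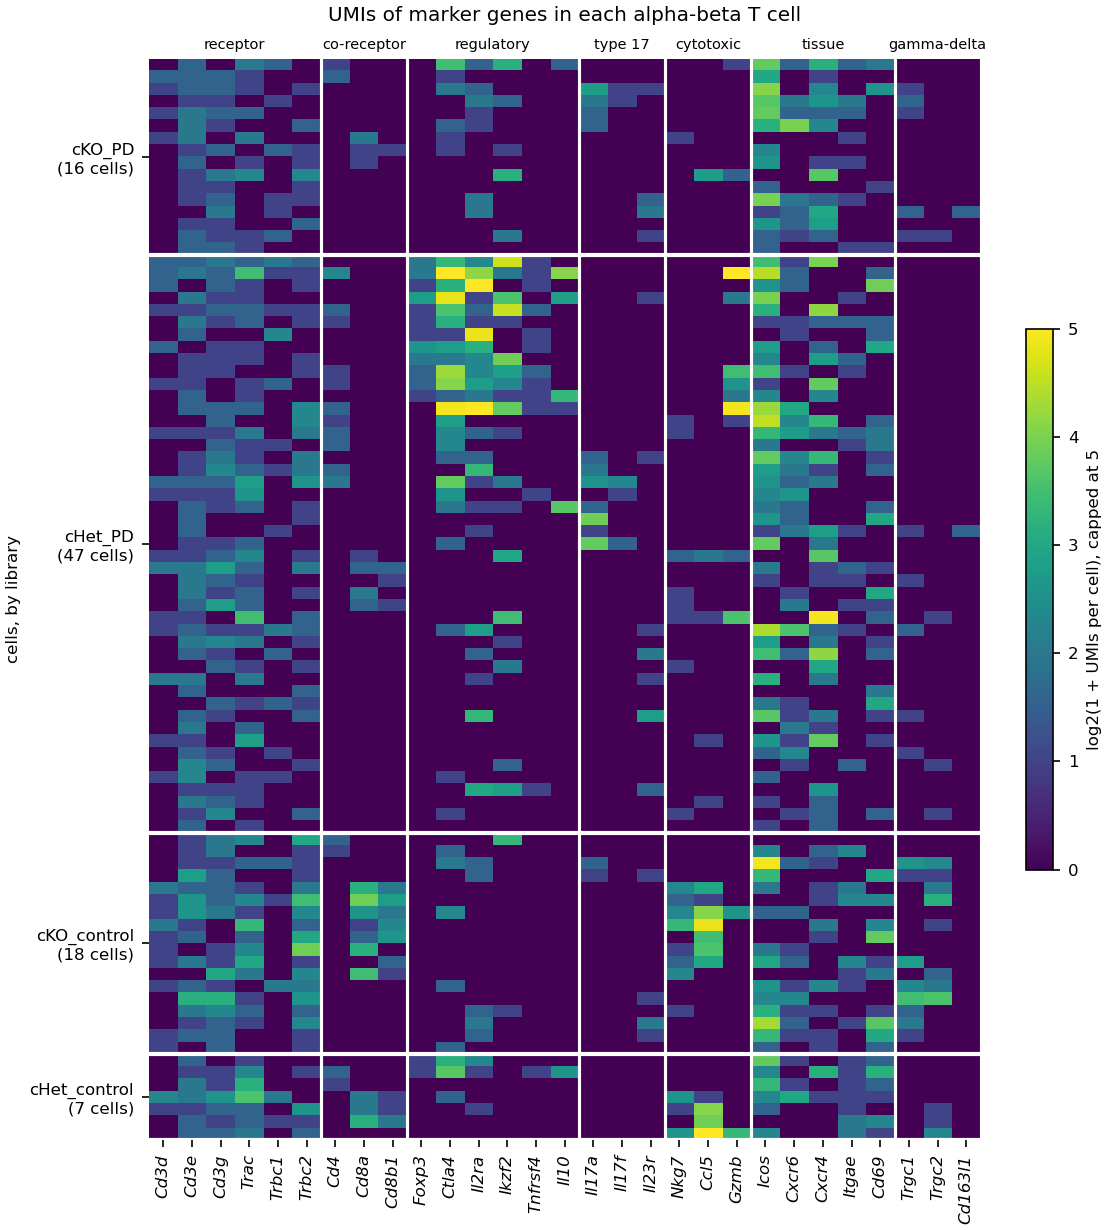
UMIs per cell of marker genes (columns) in each of the 88 αβ T cells (rows, by library), on a log2(1 + UMIs) scale capped at 5. Foxp3, CD8 and interleukin 17 UMIs were found in 14, 19 and 14 cells, with no cell in common between any pair of these classes. Classes this small would share few cells, and whether they are separate was not tested.

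Interleukin 17 UMIs were found in a small set of the cells, none of which had a Foxp3 or CD8 UMI. In cHet_PD the interleukin 17, Foxp3 and CD8 classes held 8, 12 and 5 of 47 cells. Classes this small would share few cells, and whether they are separate was not tested. Il17a (chr1:20730905-20734496, plus strand) was at 574 CPM (305 to 981) in 4 of 16 cKO_PD cells, 348 (249 to 474) in 7 of 47 cHet_PD cells, 41.2 (8.49 to 120) in 2 of 18 cKO_control cells and 0 (upper limit 198) in 7 cHet_control cells. Both PD intervals lie above those of the controls. The 14 cells with Il17a or its relative Il17f included 14 with Icos, an inducible co-stimulatory receptor, 12 with the transcription factor Maf, 11 with Cxcr6 and 7 with Tnfsf11, although 60.9 to 81.5% of epithelial cells also had a Maf UMI. Only 9 of the 14 had Trac, and 6 had a UMI of a γδ gene. These 6 were 3 of 4 in cKO_PD, 1 of 8 in cHet_PD and 2 of 2 in cKO_control. Among all αβ T cells a γδ gene was found in 6 of 16 in cKO_PD, 8 of 47 in cHet_PD and 12 of 18 in cKO_control. The interleukin 17 cells are too few to be set apart from these shares. Whether some interleukin 17 cells are γδ cells whose Trdc was missed was not tested. RANKL (Tnfsf11) was found in 2, 9, 4 and 3 cells, at 88.2, 296, 178 and 591 CPM in cKO_PD, cHet_PD, cKO_control and cHet_control. The intervals of cHet_PD (205 to 414) and cHet_control (295 to 1058) overlap. Single cells weigh on these levels: 1 cell held 8 UMIs in cHet_control and 1 held 8 in cKO_control, most of the count in each. In cHet_PD 1 cell held 17.

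A receptor ambiguity runs through the αβ cells and is given here as a measurement. Across the libraries 29 of the 88 had a UMI of a γδ-associated gene. By library these were 6 of 16 in cKO_PD, 8 of 47 in cHet_PD, 12 of 18 in cKO_control and 3 of 7 in cHet_control. The γ variable gene Trgv2 had 21 UMIs in 5 of 18 cKO_control cells, 1 UMI in cHet_control and 0 in both PD libraries. Trgc1, a γ constant gene that αβ cells can transcribe without making a γδ receptor, was found in 5 of 16, 5 of 47, 8 of 18 and 0 of 7 αβ cells, and in 24 of 32, 45 of 65, 14 of 14 and 15 of 15 γδ cells. Trgc2, a near copy of Trgc1, was found in 1, 3, 8 and 3 αβ cells. Cd163l1, a scavenger receptor of interleukin 17-producing γδ cells, was found in 1 of 16, 1 of 47, 0 of 18 and 0 of 7 αβ cells and in 19 of 32, 47 of 65, 14 of 14 and 12 of 15 γδ cells. Of the 23 αβ cells without Trac, 10 had a γδ gene, as did 8 of the 19 CD8 cells and 0 of the 14 Foxp3 cells.

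Surface receptors of resident and antigen-experienced cells were found in most libraries, while Ccr7, a gene of recirculating naive cells, was found in few cells. Icos was in 14 of 16, 36 of 47, 13 of 18 and 6 of 7 cells, against 0.121 to 0.515% of epithelial cells. Cxcr6 was in 8, 27, 9 and 3 cells, Il7r, the interleukin 7 receptor chain of long-lived cells, in 9, 25, 13 and 6, Rgs1, a brake on chemokine receptors, in 9, 37, 10 and 7, and Itgae in 7, 12, 7 and 7. Ccr7, a receptor that guides cells into lymph nodes, was in 0, 4, 1 and 0 cells. Pdcd1, the inhibitory receptor PD-1, was in 2, 10, 6 and 1 cells and Lag3, another inhibitory receptor, in 0, 5, 0 and 0. Cd40lg, with which helper T cells activate B cells and phagocytes, was in 1, 4, 3 and 0 cells. Itga9, the gene targeted in myeloid cells, had a UMI in 1 of the 88 T cells, so these cells do not test the deletion.

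Genes were then compared between libraries by size. A gene was called when it had at least 20 UMIs in the higher library, in at least 5 cells and 10% of its cells there, differed 2-fold or more once 20 CPM were added to each level, and had an interval of the ratio that excluded 1. Fixed gene lists were described at a lower limit of 1.5-fold for members with at least 20 UMIs over both libraries. With 7 to 47 cells a library, a single deep cell can set a value, and each call describes a pair of libraries and not a condition. The minimum of 20 UMIs is a higher CPM where fewer UMIs were summed, so it favours genes higher in the library with more. The numbers called higher and lower are therefore not a balance of directions. With a minimum of 10 UMIs and no minimum share of cells, 86 were higher and 72 lower in cHet_PD against cHet_control. The same setting gave 97 and 111 in cKO_PD against cKO_control, 39 and 39 between the controls, and 66 and 59 between the PD libraries. Ratios are on CPM; scaling by trimmed means (TMM) would shift every log2 ratio by 0.58 for cHet_PD over cHet_control, by −0.39 for cKO_PD over cKO_control, by 0.47 between the controls and by −0.44 between the PD libraries.

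In cHet mice, diseased gingiva had αβ T cells with more transcripts of regulatory and activation receptors, of heat shock protein 70 and of cell division genes than control gingiva. Of 764 genes that could be called, 86 were higher in cHet_PD (11.3%) and 22 lower (2.88%); under TMM scaling the split was 262 higher and 7 lower. Of the 86, 24 were also 2-fold higher in the remaining cells, neither αβ nor γδ by these rules, and 33 in γδ T cells. Of 11 regulatory T cell genes measured, 9 passed 1.5-fold upward and 0 downward, with a median log2 ratio of 1.10, against 35.5% higher, 19.4% lower and a median of 0.16 over all 1312 genes measured. Of 10 cell cycle genes 8 were higher and 0 lower (median 1.21). The median of the cell cycle list became −0.59 when cells with 1 CD3 UMI were admitted. Of 7 epithelial markers measured 4 were higher and 1 lower, and without the cHet_PD cell rich in keratins 90 genes were higher and 22 lower.

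Regulatory and co-stimulatory receptors led the difference. Ikzf2 (chr1:69531214-69687245, minus strand) had 134 UMIs in 19 of 47 cHet_PD cells and 0 in 7 cHet_control cells, so it stood at 1166 CPM (977 to 1381) against an upper limit of 198 CPM and was at least 7.23-fold higher. Its log2 ratio was 0.17 in γδ cells and −0.31 in all other cells, which carry it too, at 31.8 CPM in cHet_PD and 44.1 CPM in cHet_control. Tnfrsf9 was at 1271 CPM in cHet_PD and 53.7 CPM in cHet_control, from 146 UMIs and 1 UMI, a ratio of 23.6 (4.18 to 940). Il2ra was at 1732 CPM (1500 to 1990) and 322 CPM (118 to 702), 5.37-fold higher (2.42 to 14.8). These 3 kept their calls under all 12 alternatives run on single genes. Ctla4 (chr1:60887000-60915832, plus strand) was at 2063 CPM (1809 to 2343) in cHet_PD and 1182 CPM (741 to 1790) in cHet_control and was not called. The co-stimulatory receptor Cd28, with which Ctla4 competes for ligands, was at 618 and 215 CPM (ratio 2.88, 1.07 to 10.8).

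Stress, cytokine and signalling genes followed. Hspa1a and Hspa1b, near-identical genes of the inducible heat shock protein 70, were at 3578 CPM and 4561 CPM in cHet_PD against 322 CPM and 591 CPM in cHet_control, ratios of 11.1 (5.05 to 30.4) and 7.72 (4.28 to 15.6). Their 935 UMIs in cHet_PD lay in 33 cells, with 250 and 213 in the top cells, and the log2 ratio of Hspa1a was 1.55 in γδ cells and 1.48 in all other cells. Cxcr4, the receptor of the chemokine Cxcl12, was at 1706 CPM (1476 to 1962) and 484 CPM (221 to 918), 3.53-fold higher (1.82 to 7.83), and its log2 ratio of 1.78 was below the 2.89 of γδ cells and the 2.83 of all other cells. Nfkb1, an NF-κB subunit, was 3.13-fold higher (1.40 to 8.71). Il17a (40 UMIs against 0, at least 2.16-fold), Gata3 (29 against 0, at least 1.57-fold) and Il1rl1, the interleukin 33 receptor (27 against 0, at least 1.46-fold), were called from cells of cHet_PD only. Top2a, a topoisomerase of dividing cells (35 UMIs against 0, at least 1.89-fold), and Gzmb (2.07-fold, 1.05 to 4.64) were called, but both had log2 ratios below 0 (−0.95 and −0.59) when cells with 1 CD3 UMI were admitted.

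The genes that were lower in cHet_PD included early response genes and regulators of RNA. Tob2, an inhibitor of proliferation, was at 131 CPM in cHet_PD and 1397 CPM in cHet_control, a ratio of 0.0934 (0.0460 to 0.183). Nr4a3, a nuclear receptor induced by receptor stimulation, was at 366 and 1773 CPM (0.206, 0.128 to 0.336), and Zfp36l2, an mRNA decay factor, at 1088 and 3386 CPM (0.321, 0.236 to 0.442). Hspa8, the constitutive heat shock protein 70, was at 583 and 2042 CPM (0.286, 0.189 to 0.437), opposite to the inducible genes. The immediate early and dissociation list had 7 members higher and 12 lower of 32, and its summed level was 33678 CPM in cHet_PD and 34233 CPM in cHet_control. Of the T cell receptor signalling list 2 of 13 were higher and 7 lower (median −0.72), among them the kinase Lck and the adaptor Lat.

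In cKO mice the PD cells had more receptor and homing transcripts and fewer early response and CD8-associated transcripts. Of 510 genes that could be called, 32 were higher in cKO_PD (6.27%) and 90 lower (17.6%), and under TMM scaling 18 and 165. Of the 90 lower genes, 21 were also 2-fold lower in the remaining cells and 37 in γδ T cells. Of 6 regulatory genes measured, 5 passed 1.5-fold upward and 0 downward (median 1.84), although Foxp3 was at 0 in both cKO libraries; over all 908 genes measured 22.4% were higher and 29.8% lower (median −0.07). Of 13 tissue residence genes 7 were higher and 2 lower (median 0.61). Of 32 immediate early and dissociation genes 1 was higher and 22 lower (median −1.25). Their summed level was 22369 CPM in cKO_PD and 35996 CPM in cKO_control for αβ T cells, and 30178 and 63853 CPM for γδ T cells, and the part of cell dissociation was not tested. When only cells of at least 1500 UMIs were used, cKO_PD had 5 cells and 5 genes were called higher.

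Icos was the called gene with the most UMIs among the receptors, with 105 in 14 of 16 cKO_PD cells and 104 UMIs in 13 of 18 cKO_control cells. That is 4633 CPM (3789 to 5608) against 1427 CPM (1166 to 1729), a ratio of 3.25 (2.45 to 4.30), and its log2 ratio of 1.69 was 2.59 in γδ cells and 0.36 in other cells. Cxcr4 was at 2383 CPM (1790 to 3109) and 219 CPM (125 to 356), 10.9-fold higher (6.12 to 20.3), with log2 ratios of 3.33 here, 3.54 in γδ cells and 2.68 in other cells. Cxcr6 was at 1324 and 219 CPM (6.03, 3.18 to 11.8), Rgs1 at 1721 and 357 CPM (4.82, 2.86 to 8.25), and Ikzf2 at 971 and 137 CPM (7.08, 3.22 to 16.7). The chromatin organiser Satb1 (6.65-fold), the adhesion receptor Cd44 (2.78-fold), the lineage factor Rora (2.60-fold) and the interleukin 2 receptor chain Il2rb (2.45-fold) were also called. Icos and Cxcr4 lost their calls only among cells of at least 1500 UMIs, Rora and Il2rb under TMM scaling among others, and Ikzf2 without the deepest cell of each library among others.

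CD8-associated genes, Crip1, Lgals1, Itgb1 and heat shock genes were lower in cKO_PD. Cd8a was at 221 CPM in cKO_PD and 658 CPM in cKO_control (0.335, 0.104 to 0.837), Ccl5 at 265 CPM, from 1 cell, and 1097 CPM (0.241, 0.0860 to 0.548) and Nkg7 at 44.1 and 370 CPM (0.119, 0.00291 to 0.723). Crip1, a LIM-domain protein gene, had 0 UMIs against 41 and was at least 4.25-fold lower. Lgals1, galectin 1, was at 88.2 and 905 CPM (0.0975, 0.0116 to 0.366), and Itgb1, the integrin β1 chain that pairs with Itga9, at 88.2 and 658 CPM (0.134, 0.0158 to 0.511). Hspa1b was at 265 and 1605 CPM (0.165, 0.0593 to 0.370) and Hspa8 at 397 and 2167 CPM (0.183, 0.0823 to 0.357). Without the deepest cell of each library Cd8a and Cd8b1 lost their calls, and all of these except Hspa8 lost theirs without the cells that had a γδ gene, which left 10 cKO_PD and 6 cKO_control cells.

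The PD comparisons of the genotypes share no library and were set side by side. Of the called genes, 10 were higher in both, which is 11.6% of the cHet list and 31.2% of the cKO list, and 12 were lower in both, 54.5% and 13.3%. Over all genes that could be called, 11.3% of 764 were higher in cHet mice and 6.27% of 510 in cKO mice. The shares lower were 2.88% and 17.6%. The genes that could be called differ between the comparisons and those common to both were not counted, so no excess is read from the overlap. Those higher in both were Ikzf2, Cxcr4, Nfkb1, Oga, which removes a sugar mark from proteins, Rdm1, the polyamine enzyme gene Odc1, the growth arrest gene Btg1, the vesicle transport gene Rab8b, Fam107b and the ribosomal gene Rps27a. Of these, Cxcr4, Btg1, Odc1, Rab8b and Nfkb1 also had log2 ratios above 1 in the remaining cells of both genotypes. Ikzf2 had −0.54 in those cells of cKO mice and −0.31 in those of cHet mice, and Oga 0.50 and 0.36. Those lower in both were the heat shock genes Hspa8, Dnaja1 and Hsp90ab1, the early gene Fos, the surface glycoprotein Cd52, Vps37b, Zfp36l2 and 5 ribosomal protein genes. Cd52 was at 618, 427, 1317 and 1451 CPM in cKO_PD, cHet_PD, cKO_control and cHet_control, with both PD levels below both control levels and only the intervals of cKO_PD and cHet_control overlapping. Ribosomal protein transcripts made up 8.23% of αβ T cell UMIs in cKO_PD and in cHet_PD, 10.1% in cKO_control and 8.89% in cHet_control, and their part in these calls was not tested. Among the genes called in both, only Krt1, Hspa1a and Hspa1b went opposite ways.

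**Figure D3:**
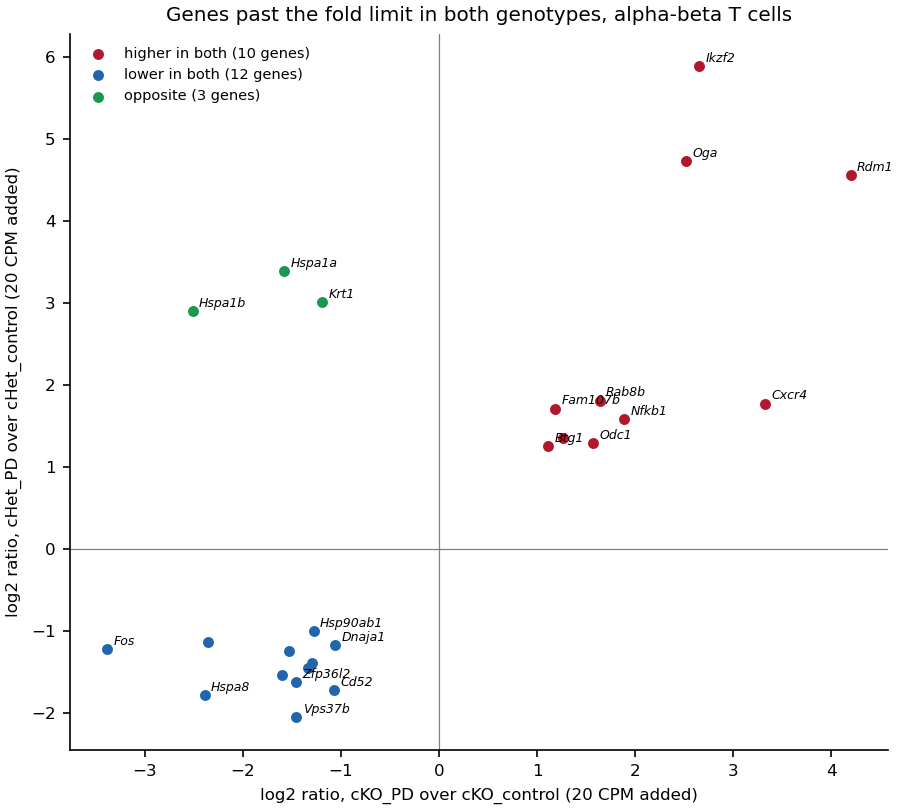
Log2 ratios of PD over control (20 CPM added) in αβ T cells of cKO mice (horizontal) and cHet mice (vertical) for the genes called in both genotypes; each point is 1 gene. The 10 genes higher in both lie at the upper right, the 12 lower in both at the lower left, and Krt1, Hspa1a and Hspa1b at the upper left.

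Between the diseased libraries, cKO_PD cells had fewer transcripts of most regulatory and cell division genes measured and of some heat shock genes than cHet_PD cells, and more of some T cell signalling and memory genes. Of 731 genes that could be called, 15 were higher in cKO_PD (2.05%) and 58 lower (7.93%), with 5 and 158 under TMM scaling. Of the 58 lower genes, 3 were also 2-fold lower in the remaining cells and 7 in γδ T cells. Of 11 regulatory genes measured 1 was at least 1.5-fold higher and 7 lower (median −1.35), against 20.3% higher, 26.9% lower and a median of −0.07 over all 1354 genes measured. This median stayed between −1.78 and −0.95 under the alternatives tried. Of 11 cell cycle genes 1 was higher and 8 lower (median −0.85), and of 6 naive and central memory genes 5 were higher and 0 lower (median 1.11). Of 8 type 17 genes 5 were higher and 0 lower (median 0.84), and of 14 NF-κB and survival genes 7 and 0 (median 0.61). The epithelial marker list was lower in cKO_PD for 6 of 6 genes measured, and without the keratin-rich cHet_PD cell 12 genes were called higher and 54 lower.

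Of the regulatory list 7 genes were lower in cKO_PD, while Icos, given below, was higher. Foxp3 had 0 UMIs in cKO_PD against 29 in cHet_PD and was at least 1.91-fold lower. Ctla4 was at 794 CPM (471 to 1255) in 6 of 16 cKO_PD cells and 2063 CPM (1809 to 2343) in 24 of 47 cHet_PD cells (0.385, 0.224 to 0.622), and 10 of its 18 cKO_PD UMIs were in 1 cell. Il2ra was at 662 and 1732 CPM (0.382, 0.210 to 0.646), Tnfrsf9 at 485 and 1271 CPM (0.382, 0.187 to 0.704) and Il10 at 88.2 and 383 CPM (0.230, 0.0271 to 0.883). Gzmb was at 132 and 1001 CPM (0.132, 0.0269 to 0.396), with 51 and 29 of the 115 cHet_PD UMIs in 2 cells. Ikzf2 did not follow and was at 971 and 1166 CPM with overlapping intervals. In γδ cells of the same libraries the log2 ratio was −0.89 for Ctla4, 0.11 for Il2ra and −0.41 for Tnfrsf9, against −1.36, −1.36 and −1.35 in αβ cells.

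Among the other lower genes were inducible heat shock and cell division genes. Hspa1a was at 221 and 3578 CPM (0.0617, 0.0199 to 0.145) and Hspa1b at 265 and 4561 CPM (0.0580, 0.0212 to 0.127) in cKO_PD and cHet_PD, while their log2 ratios in γδ cells were 0.50 and −0.27. Mki67, a proliferation marker, was at 44.1 and 313 CPM (0.141, 0.00347 to 0.836), and Top2a had 0 UMIs against 35, at least 2.30-fold lower, and other cells of both libraries carry these genes at 85.4 to 155 CPM. Hopx, a transcriptional cofactor, was at 88.2 and 740 CPM (0.119, 0.0142 to 0.444). Il1rl1 had 0 UMIs against 27 in 7 cells, at least 1.78-fold lower, and stood at 116 CPM in the other cells of cHet_PD.

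Signalling and memory genes were higher in cKO_PD. Icos was at 4633 CPM (3789 to 5608) in cKO_PD and 2272 CPM (2005 to 2565) in cHet_PD (2.04, 1.61 to 2.57), and Rora at 4324 and 1976 CPM (2.19, 1.71 to 2.79). Satb1 was at 1368 and 453 CPM (3.02, 1.87 to 4.80) and Nr4a3 at 1103 and 366 CPM (3.02, 1.76 to 5.07). Tiparp, Dennd4a, Neurl3, Skil, Polr2a and Rdm1 were 2.30- to 3.24-fold higher. Under TMM scaling Icos, Rora, Skil, Polr2a and Rdm1 fell below 2-fold.

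**Figure D4:**
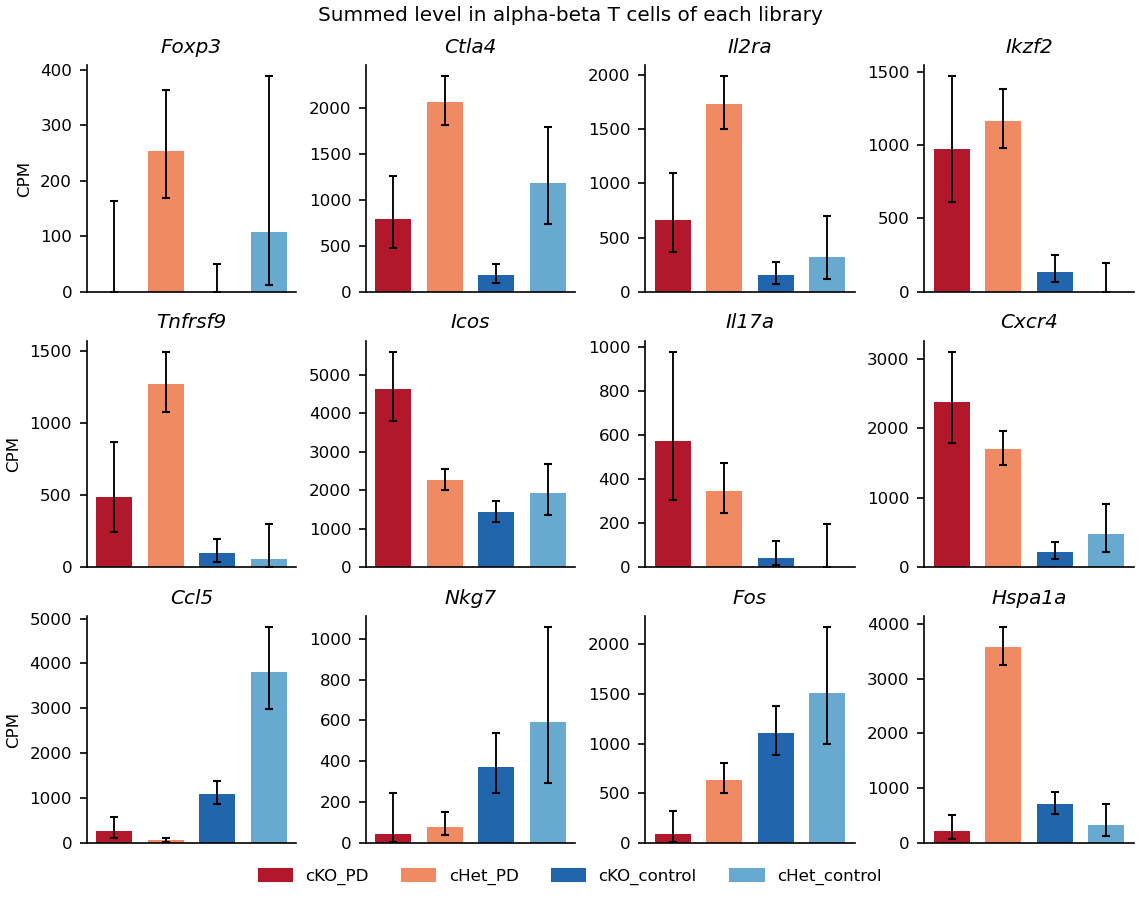
Level (CPM) of 12 genes in the αβ T cells of cKO_PD, cHet_PD, cKO_control and cHet_control; bars start at 0 and the lines are exact 95% Poisson intervals of counting error. Foxp3, Ctla4, Il2ra, Tnfrsf9 and Hspa1a are highest in cHet_PD, Icos and Cxcr4 in cKO_PD, and Ccl5 and Nkg7 in cHet_control.

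Between the control libraries, where cHet_control held 7 cells, few genes could be called. Of 451 genes, 33 were higher in cKO_control (7.32%) and 5 lower (1.11%), with 115 and 3 under TMM scaling. Itgb1 reached 658 CPM in cKO_control, from 48 UMIs, and 53.7 CPM in cHet_control, from 1 UMI, a ratio of 12.3 (2.10 to 494). Tcf7 had 28 UMIs in 10 of 18 cells against 0 and was at least 2.38-fold higher, and Ly6c2, a surface protein of memory CD8 cells, had 29 against 0, at least 2.47-fold. Klf4, a quiescence factor, was 3.46-fold higher (1.62 to 8.85). Rgs1 was at 357 and 1666 CPM (0.214, 0.122 to 0.373). Of 6 type 1 and cytotoxic genes 0 passed 1.5-fold upward and 4 downward (median −0.93), against 24.3% and 17.9% of all 849 genes; without cells that had a γδ gene, which left 6 and 4 cells, the median was 1.53. Itgb1 and Tcf7 lost their calls in that setting.

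Set beside the γδ T cells of the PD libraries, αβ cells had more Ctla4 and Ikzf2 and less Pdcd1 and interleukin 17. The groups were chosen by their receptor genes, so this is a description of what each group carried. Of 615 genes compared in both PD libraries, 4 were at least 2-fold higher in αβ cells of both (0.65%) and 32 lower (5.2%). The call rule used between libraries was not applied here, neither its UMI minimum in the higher group nor its interval. Ctla4, among the higher genes, had 18 UMIs in αβ cells of cKO_PD. The early gene Jun, among the lower, had an interval of the ratio in cKO_PD that included 1 (0.0613 to 1.11). Ctla4 was at 794 CPM in αβ and 181 CPM in γδ cells of cKO_PD, and at 2063 and 352 CPM in those of cHet_PD. Ikzf2 was at 971 and 407 CPM in cKO_PD and at 1166 and 352 CPM in cHet_PD. The other higher genes were Ctla2a, a protease inhibitor, and Tank, an adaptor of NF-κB and interferon signalling. Cd28, sparsely counted and not among the 4 higher genes, was at 574 CPM in αβ and 0 in γδ cells of cKO_PD. In those of cHet_PD it was at 618 and 32.8 CPM.

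Interleukin 17 genes, γδ receptor genes and a growth factor stood on the γδ side. Il17a was at 574 CPM in αβ and 2421 CPM in γδ cells of cKO_PD, and at 348 and 2146 CPM in those of cHet_PD. Areg, an epidermal growth factor receptor ligand of tissue repair, was at 88.2 and 1267 CPM in cKO_PD and 113 and 917 CPM in cHet_PD. Pdcd1 was at 176 and 701 CPM and at 131 and 565 CPM, so the checkpoint receptors Ctla4 and Pdcd1 ran in opposite directions. Il1r1, the interleukin 1 receptor, was at 221 and 588 CPM and at 270 and 713 CPM. Trgc1, Trdv4, Cd163l1 and the kinase Blk, all known from γδ cells, were also lower in αβ cells, as were Il17f and the matrix gene Npnt. Icos was less than 2-fold apart in both libraries, at 4633 and 4637 CPM in cKO_PD and, lower in αβ cells, at 2272 and 3203 CPM in cHet_PD.

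**Figure D5:**
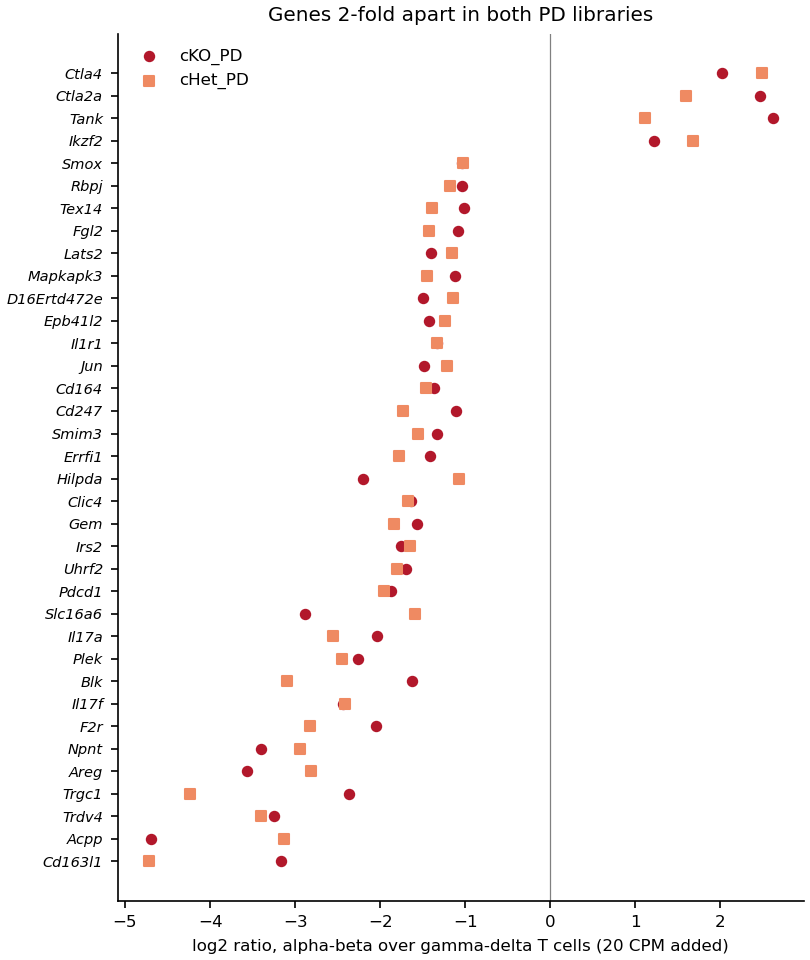
Log2 ratio of αβ over γδ T cells (20 CPM added) in cKO_PD and cHet_PD for the 36 genes at least 2-fold apart the same way in both libraries. Ikzf2, Ctla4, Ctla2a and Tank lie to the right of 0 and the other 32, among them Il17a, Areg and Pdcd1, to the left.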

How the data were processed

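Single-cell suspensions of gingiva were made by collagenase, dispase and DNase digestion, stained for viability and captured on BD Rhapsody, per the labels' protocols; a second label gives 10x Genomics as the platform, and barcodes of 27 bases were read from the files unchanged. Reads were processed with fastp and STARsolo 2.7.10a on mm10, per the submitters' processing notes, and the authors deposited raw UMI counts per gene and barcode for each library. How the authors filtered barcodes is not given in the sources used here.

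Barcodes with at least 200 genes and at most 20% mitochondrial UMIs were kept, and αβ T cells were picked by the rule given above. No doublet caller was run; the limits on Krt5, Krt14, Lyz2, Cd79a and Trdc remove mixed cells in part, and an alternative leaves out cells with UMIs of other lineages and the top 5% of UMIs. Counts were summed over the αβ T cells of a library and scaled to CPM. Each group is 1 library, so no p-value was computed. Genes named in the comparisons were the 10 called genes with the highest and the 10 with the lowest ratio, leaving out ribosomal, mitochondrial, receptor segment and predicted genes and genes higher in the other cells of that library, a fixed core list of T cell genes, and the 4 called members of each T cell list with the largest ratio. Genes outside that rule, such as Cd52, Ms4a4b, Gzma, Krt1, Areg and Cd28, were chosen after their values were seen. The members, lists and rules were chosen with earlier results of these data known.

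The call rule was also run on simulated counts with known folds. Those counts follow the counting model of the intervals and scatter UMIs at random over cells. The run therefore cannot show how calls behave where 1 cell holds most UMIs of a gene. Alternatives were a floor of 1500 UMIs, thinning to 1000 UMIs, TMM scaling (edgeR 4.0.16 in R 4.3.3, used for scaling only), 5 CPM added, equal weight per cell, at least 1 or 3 CD3 UMIs, removal of cells with other-lineage UMIs, a minimum of 10 UMIs and a mitochondrial limit of 10%. A further 4 were added after the data were seen: requiring Trac, leaving out cells with a γδ gene, leaving out the deepest cell of each library, and leaving out cells with at least 50 epithelial UMIs. Python 3.11.15 with numpy 2.4.6, scipy 1.17.1 and pandas 2.3.3 was used.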

Additional observations from a re-analysis of the deposited data

Results flagged for a closer look

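Among the genes called in the PD comparison of both genotypes, 3 had opposite signs in cKO and cHet mice, and in each case the difference was not tested. The log2 ratio of PD over control was −1.58 in cKO and 3.39 in cHet mice for Hspa1a, and −2.51 in cKO and 2.91 in cHet mice for Hspa1b. In γδ T cells these were −0.07 and 1.55 for Hspa1a and −0.70 and 1.11 for Hspa1b. The gene pair is induced by heat and tissue dissociation, and 250 of the 935 UMIs in cHet_PD were in 1 αβ T cell.

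For Krt1, a keratin of the upper epithelium, the log2 ratio was −1.19 in cKO and 3.01 in cHet mice, with 599 of the 665 cHet_PD UMIs in 1 cell. Krt1 and Krt10 together stood at 12561 CPM in cHet_PD with that cell and at 1349 CPM without it, against 2472 CPM in cHet_control.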

How the results depend on the processing

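No paired analysis was possible because 1 library made up each group, and for the same reason no replicate could be left out. Counts of called genes moved by over 1.5 times as follows, and except where fewer cells or UMIs remained the cause was not tested. With cells thinned to 1000 UMIs, 21 higher and 5 lower genes were left in cHet_PD against cHet_control, 8 and 20 in cKO_PD against cKO_control, 5 and 1 between the controls, and 3 and 24 between the PD libraries. TMM scaling gave 262 and 7, 18 and 165, 115 and 3, and 5 and 158 in the same order. Admitting cells with 1 CD3 UMI gave 194 and 72 in cHet mice, 58 higher in cKO mice, 53 and 26 between controls, and 26 and 93 between PD libraries. Requiring 3 CD3 UMIs gave 11 lower in cHet mice, 20 higher in cKO mice and 3 lower between controls. A floor of 1500 UMIs gave 5 and 55 in cKO mice and 3 and 37 between PD libraries. A minimum of 10 UMIs with no share of cells gave 72 lower in cHet mice, 97 higher in cKO mice, 39 lower between controls and 66 higher between PD libraries. Without cells with other-lineage UMIs or in the top 5% of UMIs there were 44 and 11 in cHet mice and 1 lower between controls. Requiring Trac gave 15 and 59 in cKO mice, 10 lower between controls and 8 higher between PD libraries. Without cells that had a γδ gene there were 36 and 0 in cHet mice, 13 and 22 in cKO mice, 10 and 0 between controls, and 7 higher between PD libraries. Without the deepest cell of each library 57 were higher in cHet mice.

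The αβ share moved to 0.101% in cKO_PD with a floor of 1500 UMIs and to 0.394% with 1 CD3 UMI, to 0.335% in cHet_PD with 3 CD3 UMIs, and to 0.386% in cKO_control with at most 10% mitochondrial UMIs. In cHet_control it was 0.163% with that limit and 0.152% with 1 CD3 UMI, within its interval but over 1.5 times the 0.0884% reported, and the ratio of PD to control in cHet mice was 3.27 to 6.65 over these alternatives. The share of cells with Cd4 and that with Cd8a were 0% in cKO_PD with the floor of 1500 UMIs, and those with Foxp3 and Cd4 were 0% in cHet_control after thinning.

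Some values turned round. Admitting 1 CD3 UMI gave log2 ratios of −0.59 for Gzmb, −1.21 for Stmn1, −0.95 for Top2a and −0.59 for the cell cycle list in cHet mice. In cKO mice the median of the co-receptor list became 0.93 thinned, 0.21 with 1 CD3 UMI and 0.38 without γδ gene cells, and that of the type 1 list −0.76 with Trac required and −0.65 without γδ gene cells. Between controls Dusp5 became 0.090 without other-lineage cells, 0.29 without γδ gene cells and 0.030 without the deepest cells, and the type 1 list 1.53 without γδ gene cells. Between PD libraries the cell cycle list became 0.057 thinned.

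Of 119 results for named called genes, 119 kept their call with 5 CPM added, 117 with equal weight per cell, 104 under TMM scaling, 74 with the UMI floor, 88 with 1 CD3 UMI, 67 with 3, 80 with Trac required, 31 without γδ gene cells and 24 after thinning. Ikzf2, Tnfrsf9, Il2ra, Hspa1a and Hspa1b kept theirs in cHet mice under all 12 alternatives run on single genes, as did Hspa8 in cKO mice and Hspa1a, Hspa1b, Hopx and Tnfrsf9 between the PD libraries. The main limits are 7 to 47 cells in a library, 1 library in a group, the lower depth of the PD libraries and uncertain separation of some cells from γδ T cells.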
